A study of Mus musculus with 12 samples.

Results

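The endoplasmic reticulum (ER) translocation, folding and chaperone genes are 54 of the 11035 genes in the count table, and the rule that defines them uses gene symbols alone. The rule took the Sec61, Sec62 and Sec63 channel with its Ssr partners, signal peptidase, the oligosaccharyltransferase, ER chaperones, protein disulfide isomerases and their oxidases, the sensors of the unfolded protein response, ER-associated degradation and the Sec23 and Sec24 coat proteins. Of the 54 genes 52 were tested. The other two, Ero1lb, an oxidase of disulfide isomerases, and Sec23ip, a partner of the Sec23 coat, had too few counts, at 0 to 5.23 CPM (counts scaled to a common library size) and 0 to 7.13 CPM per library. Ern1, the gene of the sensor IRE1, and Rpn1, Stt3a, Spcs2 and Pdia2 belong to the same roles and match the rule. They are not among the 11035 genes of the count table, so they could not be analysed. The table uses the older symbols Ero1l and Ero1lb for Ero1a and Ero1b.

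Proteins bound for secretion or for membranes enter the ER through the Sec61 channel, lose their signal peptide, receive sugar chains and fold with the help of chaperones. They then leave in COPII-coated vesicles, or are extracted and degraded if they fail to fold. When folding falls behind, the sensors IRE1, ATF6 and PERK signal to the nucleus; IRE1 splices the Xbp1 transcript, and the XBP1 and ATF6 proteins act on ER stress elements in chaperone promoters. Adipocytes secrete hormones and lipases by this route, and XBP1 is known to be needed for fat cell formation in 3T3-L1 cells.

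The 12 libraries come from 3T3-L1, a mouse fibroblast line that becomes fat cells when given hormones. They were made with MARS-seq, in which the 3′ ends of transcripts are counted by molecular identifiers. All 4 groups of 3 libraries are labelled WT for the genotype of the 3T3-L1 cells. The preadipocyte group was undifferentiated, with no treatment, and was kept in medium with 10% calf serum. The regular_diff group was induced 2 days past confluence, for 2 days, with 0.5 mM 3-isobutyl-1-methylxanthine (IBMX), 1 μM dexamethasone, 1 μg/mL insulin and 2 μM rosiglitazone in 10% fetal bovine serum. It then had insulin for 2 days, followed by maintenance medium with the same serum. The WT_CM and KO_CM groups went through the same steps with each medium mixed 1:1 with filtered medium conditioned by WEA cells, a breast cancer line, with p53 intact (WT_CM) or knocked out (KO_CM). The p53 difference lies in the cancer cells. No libraries of a mix with unconditioned medium were analysed here, so when WT_CM or KO_CM is set against regular_diff, what the cancer cells released and the dilution of the inducers cannot be told apart. Serum, time in culture and hormones cannot be told apart when regular_diff is set against preadipocyte. The labels number the libraries of preadipocyte and of regular_diff 4 to 6, and those of each conditioned medium 1 to 3. They do not say whether these are separate cultures, so the spread behind every p-value may be technical.

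Total counts were 1458452 to 1836626 per library in preadipocyte, 1387854 to 1801316 in regular_diff, 1758814 to 2025317 in WT_CM and 669007 to 1132099 in KO_CM, the shallowest group. Preadipocyte replicate 5 and KO_CM replicate 1 stood apart from their groups: the chi-square per gene against the other libraries of the group was 4.14 to 6.60, against 1.95 to 2.67 for all other pairs within a group. Counts and calls that changed when both libraries were left out are given beside the results. Both were picked for their spread in these same data, so calls and shares gained without them are no separate evidence of a change. The 8 adipocyte markers summed to 188 to 659 CPM in preadipocyte, 35855 to 39171 in regular_diff, 32520 to 33140 in WT_CM and 8429 to 10873 in KO_CM. All 8 rose with differentiation and 7 of 8 were lower in KO_CM than in regular_diff. In preadipocyte replicate 5 their sum was 659 CPM, against 188 and 214 CPM in replicates 4 and 6. The 8 preadipocyte and stromal markers summed to 5055 to 5419, 963 to 1059, 1609 to 1877 and 4044 to 4415 CPM in the same order, and 6 of the 7 tested were higher in KO_CM than in regular_diff. Plin1, a coat protein of fat droplets, was at 0 counts in preadipocyte replicate 6, and Cd34, a progenitor marker, was at 0 in 2 regular_diff libraries and in KO_CM replicate 2. The 2 macrophage markers present (Cd68 and Cd14) summed to 11.8 to 45.7 CPM and the 3 epithelial keratins (Krt8, Krt18 and Krt14) to 4.35 to 52.8 CPM over all libraries. In KO_CM the summed adipocyte markers lay between those of preadipocyte and regular_diff. So did the stromal sum, most of which is Fn1, but single stromal markers differed. Fn1 and Col1a1 were lower in KO_CM than in preadipocyte, Pdgfra was higher, at 342 against 136 CPM, and Pdgfrb, Dlk1, Ly6a and Thy1 were not called. Ly6a was at 14.4 CPM in KO_CM replicate 1, against 343 and 296 CPM in KO_CM replicates 2 and 3. The part of the adipocyte and stromal markers in the ER results was not tested. In bulk RNA, fewer cells of a type and less RNA per cell cannot be told apart.

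The ER genes were called in both directions in every comparison, and a few large changes, those of Xbp1, Dnajb9, Ero1l, Pdia5 and Sec24d among them, stood among many genes without a call. In KO_CM against preadipocyte the lower side was Ddost alone, just past the threshold (adjusted p = 0.0491, edgeR), and several alternatives lost it. The counts below are at an adjusted p under 0.05 in edgeR's quasi-likelihood test, with the Benjamini-Hochberg adjustment made across all 9519 tested genes. Between regular_diff and preadipocyte, 9 of 52 ER genes rose and 10 fell, against a background of 24.8% of all genes called higher and 26.4% called lower. With scaling by library size alone, which shifts the median of all genes by -0.16, all genes split into 1905 higher and 3221 lower, in place of 2364 and 2510, and the ER genes into 4 and 17. The median log2 fold change was -0.02 over the ER genes and -0.06 over all genes. The shares of ER genes called were 17.3% and 19.2%, below the background in either direction. Without preadipocyte replicate 5 and KO_CM replicate 1, 13 rose and 13 fell, 25% each, and the background in that fit was 25.8% and 27.4%, so the shares were then close to it.

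Under medium of p53-intact cancer cells (WT_CM against regular_diff), 7 ER genes were higher and 2 lower. The background was 5.73% higher and 4.18% lower, and the ER shares were 13.5% and 3.85%. The median was 0.15 over the ER genes and -0.01 over all genes. The count of 7 depends on single libraries: it was 2 without regular_diff replicate 4 or 6, 4 without WT_CM replicate 1 or 2, and 1 with every library thinned to the smallest total. With the 2 libraries that stand apart left out it rose to 10, with Sec61a1, Stt3b and Hsp90b1 added. The share was then 19.2% against 7.69% of all genes in that fit. Neither library belongs to WT_CM or regular_diff, and the log2 fold changes of the added genes hardly moved (Hsp90b1 from 0.276 to 0.278). All groups share 1 estimate of the spread, and the libraries left out were chosen for their spread in these same data. The rise to 10 is therefore no separate evidence of higher levels in WT_CM.

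Under medium of p53-knockout cancer cells (KO_CM against regular_diff), 10 ER genes were higher and 6 lower, with a background of 17.2% and 17.3% and ER shares of 19.2% and 11.5%. The median was 0.14 over the ER genes and -0.0028 over all genes. Without preadipocyte replicate 5 and KO_CM replicate 1, 16 ER genes were higher and 4 lower, 30.8% and 7.69% against 17.2% of all genes in each direction. The lower count was 3 without regular_diff replicate 5. Between KO_CM and WT_CM, 4 ER genes were higher and 4 lower, against a background of 13.6% and 13.9% and with ER shares of 7.69% in each direction. Without the same 2 libraries the counts were 7 and 3, or 13.5% and 5.77% against 13.6% and 13.7% of all genes.

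Between KO_CM and preadipocyte, 10 ER genes were higher and 1 lower, against a background of 12.1% and 8.4% and with ER shares of 19.2% and 1.92%. The median was 0.09 over the ER genes and -0.01 over all genes. With library size alone all genes split into 1000 higher and 1141 lower in place of 1156 and 800, and the ER genes into 8 and 6. With DESeq2 all genes split into 1098 and 470, and the ER genes into 10 and 0. Without preadipocyte replicate 5 and KO_CM replicate 1 the ER counts were 14 and 2, or 26.9% and 3.85% against 12.3% and 7.54% of all genes. The comparisons share groups (regular_diff enters 3 of the 5), so their values are set side by side below and no relation between them is given.

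**Figure D1:**
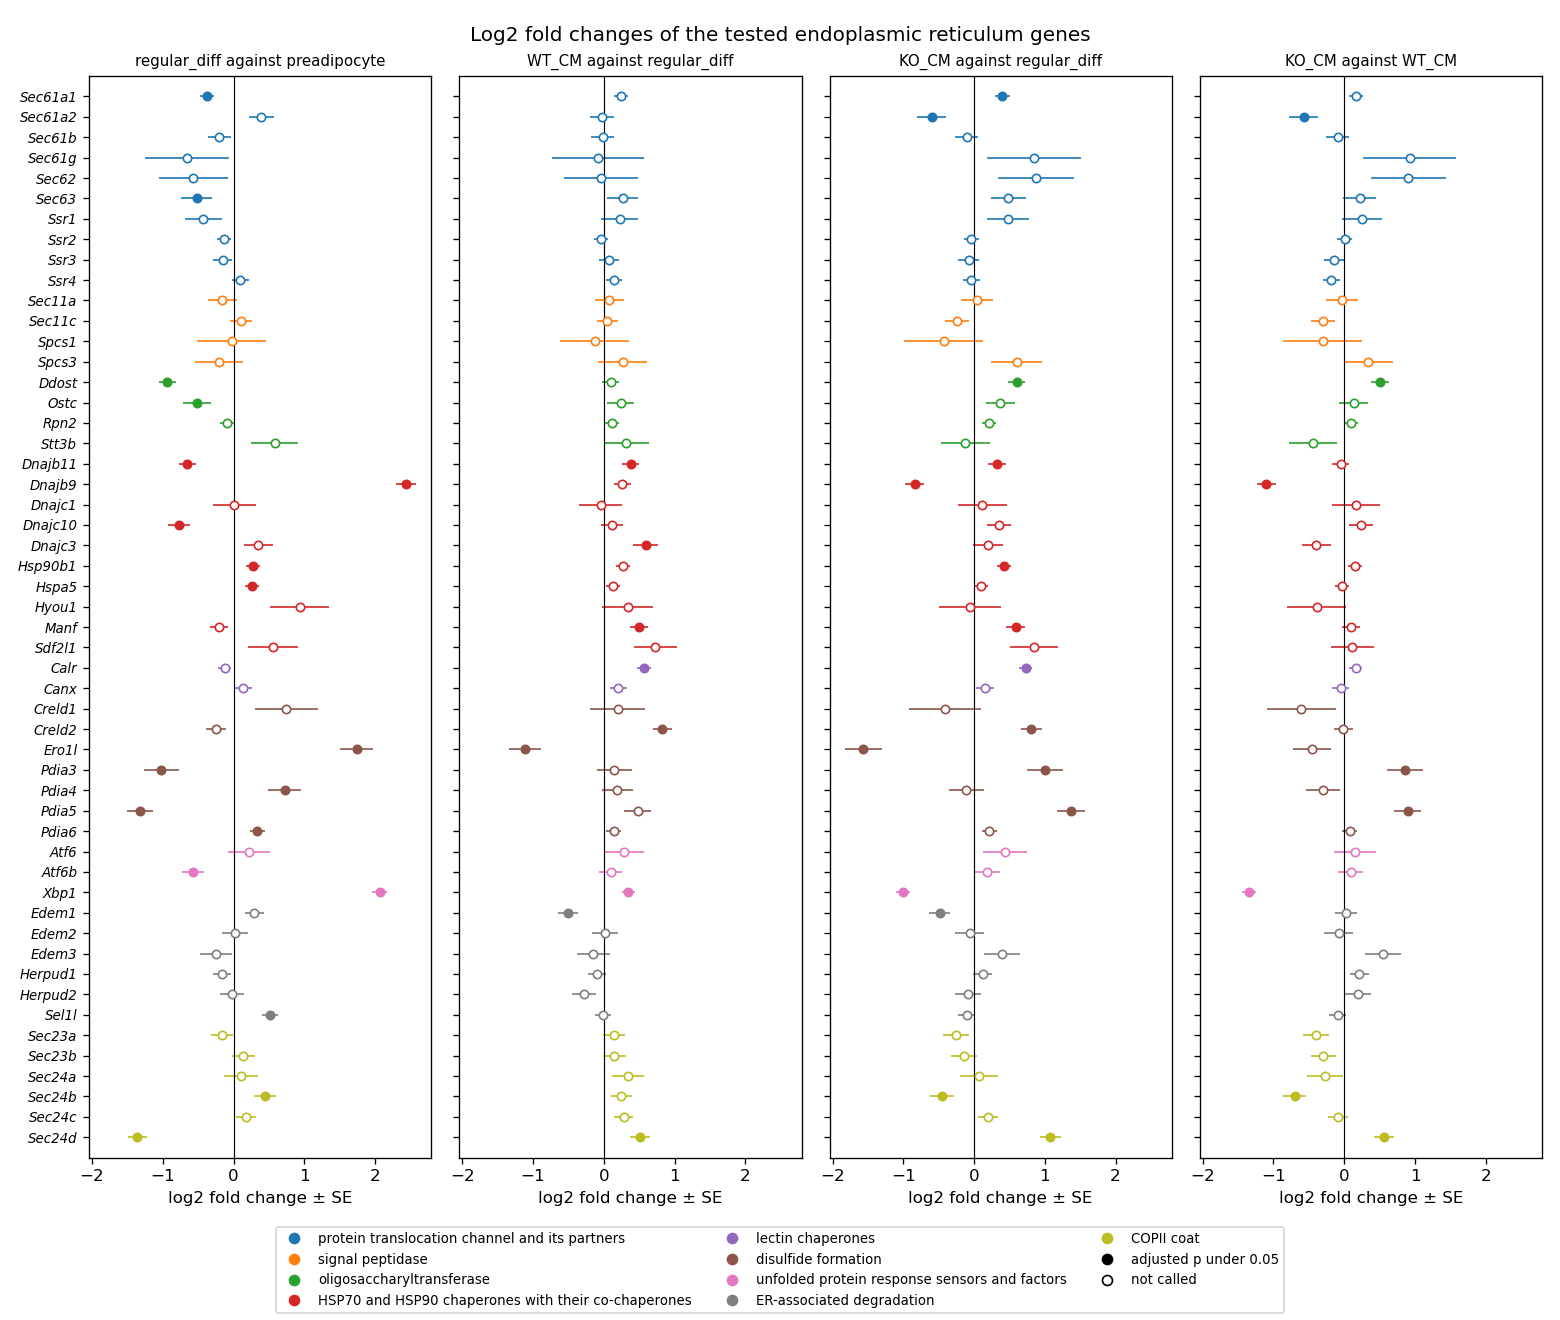
Log2 fold changes (x axis, with the standard error as bars) of the 52 tested ER genes (y axis, coloured by role) in 4 comparisons; filled points have an adjusted p under 0.05. Xbp1 and Dnajb9 lie at 2.06 and 2.43 in regular_diff against preadipocyte and at -1.35 and -1.10 in KO_CM against WT_CM, while most other points lie near 0.

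The promoters were read because many ER chaperone genes carry an ER stress element (ERSE), the letters CCAAT, 9 other bases and CCACG, which ATF6 and XBP1 are known to use. RefSeq windows on GRCm38.p6, from 250 bases before to 50 bases after the start site, were matched for 46 of the 54 genes; the 8 others are Sec61a1, Ssr2, Sec11c, Spcs3, Ostc, Hyou1, Manf and Atf6. Each window was searched on both strands. The windows of 8 genes (17.4%) held an ERSE, against 0.119% of the 32851 promoters in the same table: Hspa5, Hsp90b1 (with 2), Calr, Canx, Creld2, Pdia6, Dnajc3 and Ero1lb. ERSE-II, the letters ATTGG, 1 other base and CCACG, was found in Dnajb11 and Herpud1 and in 0.0365% of all promoters. The XBP1 element UPRE (TGACGTGG) was found in Sec23a and Sec24d, and in 0.676% of all. The amino acid response element (TGATGCAA) was found in Herpud1 and in 0.895% of all. In these genes no match overlapped another. These are matches of letters, not measured binding sites.

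The windows below show, in capitals, the ERSE of the chaperone and folding genes that the results turn on, the ERSE-II of Dnajb11 and the UPRE of Sec24d. They are followed by the windows of Xbp1 and Dnajb9, the genes with the largest rises with differentiation, in which none of the 4 motifs was found. All read 5′ to 3′ on the strand of the gene, with coordinates on GRCm38.p6.
Hspa5 (chr2:34771840-34772139, plus strand): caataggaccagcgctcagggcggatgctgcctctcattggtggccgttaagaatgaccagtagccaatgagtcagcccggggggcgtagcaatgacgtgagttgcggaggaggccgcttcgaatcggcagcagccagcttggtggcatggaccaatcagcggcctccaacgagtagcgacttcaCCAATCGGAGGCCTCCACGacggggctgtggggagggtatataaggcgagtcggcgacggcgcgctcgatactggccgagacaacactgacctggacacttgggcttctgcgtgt
Hsp90b1 (chr10:86705395-86705694, minus strand): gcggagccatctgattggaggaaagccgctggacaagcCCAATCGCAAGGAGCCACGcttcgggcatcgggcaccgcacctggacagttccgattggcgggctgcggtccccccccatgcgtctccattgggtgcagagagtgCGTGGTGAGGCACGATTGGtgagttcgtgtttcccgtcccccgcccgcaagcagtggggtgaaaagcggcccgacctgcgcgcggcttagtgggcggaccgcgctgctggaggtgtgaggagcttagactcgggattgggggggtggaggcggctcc
Calr (chr8:84846882-84847181, minus strand): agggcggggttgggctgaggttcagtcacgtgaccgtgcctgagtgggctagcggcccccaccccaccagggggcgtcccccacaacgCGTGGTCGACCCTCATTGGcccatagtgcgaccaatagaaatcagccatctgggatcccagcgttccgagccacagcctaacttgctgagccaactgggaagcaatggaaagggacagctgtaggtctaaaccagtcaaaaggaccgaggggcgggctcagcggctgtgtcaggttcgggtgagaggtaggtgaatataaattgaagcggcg
Creld2 (chr15:88819396-88819695, plus strand): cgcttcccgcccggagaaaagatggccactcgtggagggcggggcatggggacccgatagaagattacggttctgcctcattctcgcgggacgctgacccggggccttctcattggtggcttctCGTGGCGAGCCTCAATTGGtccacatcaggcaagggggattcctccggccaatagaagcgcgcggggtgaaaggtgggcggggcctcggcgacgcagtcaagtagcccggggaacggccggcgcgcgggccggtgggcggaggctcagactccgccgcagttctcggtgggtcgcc
Pdia6 (chr12:17266339-17266638, plus strand): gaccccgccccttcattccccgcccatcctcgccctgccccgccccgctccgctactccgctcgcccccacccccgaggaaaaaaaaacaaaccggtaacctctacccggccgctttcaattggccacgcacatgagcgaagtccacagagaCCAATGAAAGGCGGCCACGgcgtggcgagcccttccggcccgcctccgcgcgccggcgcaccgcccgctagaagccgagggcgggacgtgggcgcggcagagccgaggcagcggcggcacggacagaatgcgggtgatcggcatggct
Dnajb11 (chr16:22857595-22857894, plus strand): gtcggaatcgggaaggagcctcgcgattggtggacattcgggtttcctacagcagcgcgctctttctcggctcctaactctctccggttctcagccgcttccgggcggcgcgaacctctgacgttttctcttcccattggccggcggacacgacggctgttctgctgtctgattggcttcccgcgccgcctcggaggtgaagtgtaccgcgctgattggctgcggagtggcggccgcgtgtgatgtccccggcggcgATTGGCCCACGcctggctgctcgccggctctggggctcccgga
Sec24d (chr3:123267246-123267545, plus strand): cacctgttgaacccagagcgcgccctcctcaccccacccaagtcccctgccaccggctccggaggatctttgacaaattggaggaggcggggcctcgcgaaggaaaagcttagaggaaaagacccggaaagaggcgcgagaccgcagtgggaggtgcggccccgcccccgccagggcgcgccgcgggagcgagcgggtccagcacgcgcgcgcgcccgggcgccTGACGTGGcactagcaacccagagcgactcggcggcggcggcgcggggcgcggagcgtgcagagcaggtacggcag
Xbp1 (chr11:5520391-5520690, plus strand): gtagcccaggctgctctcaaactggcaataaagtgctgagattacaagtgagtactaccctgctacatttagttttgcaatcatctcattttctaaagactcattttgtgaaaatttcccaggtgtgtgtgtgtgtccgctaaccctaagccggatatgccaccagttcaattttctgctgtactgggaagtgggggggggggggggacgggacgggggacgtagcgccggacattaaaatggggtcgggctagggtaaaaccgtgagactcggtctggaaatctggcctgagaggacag
Dnajb9 (chr12:44210019-44210318, minus strand): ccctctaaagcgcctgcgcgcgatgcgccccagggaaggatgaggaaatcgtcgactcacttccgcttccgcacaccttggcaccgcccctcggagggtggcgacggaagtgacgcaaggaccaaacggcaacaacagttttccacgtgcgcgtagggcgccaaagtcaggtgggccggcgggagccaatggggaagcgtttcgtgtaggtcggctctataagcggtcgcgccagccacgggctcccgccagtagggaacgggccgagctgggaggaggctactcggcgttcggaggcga

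The ERSE of Hspa5 lies on the sense strand from -65 to -47 relative to the start site, counted as 0. Those of Hsp90b1 lie at -212 to -194 (sense) and -107 to -89 (antisense), that of Calr at -162 to -144 (antisense) and that of Creld2 at -126 to -108 (antisense). The antisense matches appear in the printed strand as CGTGG, 9 bases and ATTGG. That of Pdia6 lies at -98 to -80 (sense). The ERSE-II of Dnajb11 lies just after the start, at 7 to 17, and the UPRE of Sec24d at -26 to -19.

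**Figure D2:**
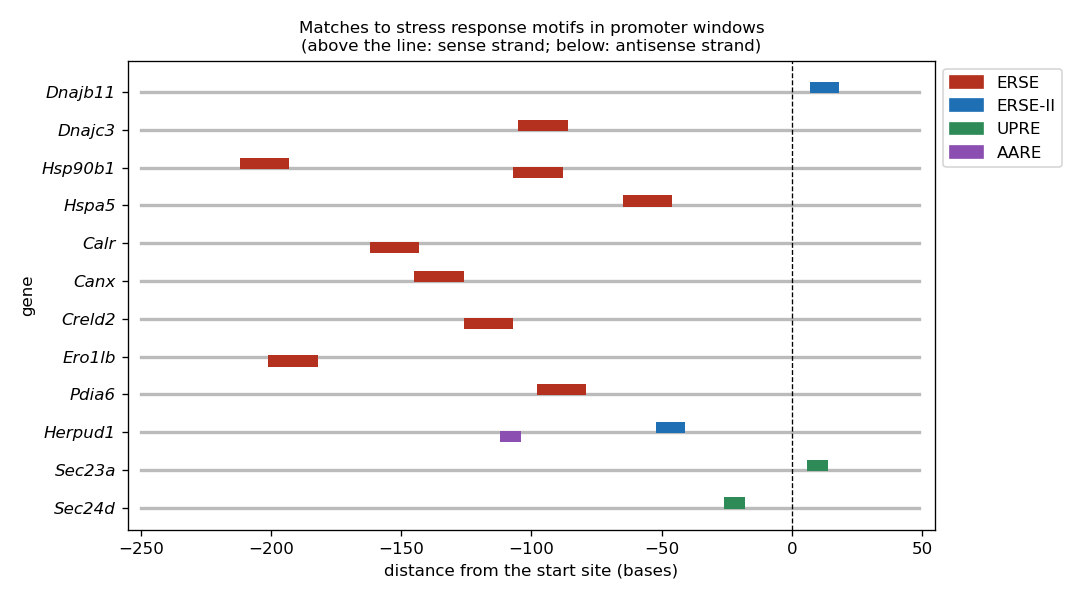
Matches to 4 stress response motifs in the promoter windows of the 12 ER genes that hold any (y axis), by distance from the start site in bases (x axis, dashed line at 0); bars above a gene's line are on its sense strand and bars below on the antisense strand. The 9 ERSE matches lie between -212 and -47, upstream of the start site.

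The factors of the unfolded protein response moved apart from each other. Xbp1, whose spliced form encodes the transcription factor of the IRE1 arm, stood at 133, 141 and 126 CPM in preadipocyte replicates 4, 5 and 6, and at 537, 574 and 563 CPM in regular_diff. It was at 745, 701 and 682 CPM in the WT_CM libraries and at 280, 284 and 268 CPM in the KO_CM libraries. The 4 groups did not overlap, and KO_CM lay between preadipocyte and regular_diff. Xbp1 rose with differentiation by a log2 fold change of 2.06 ± 0.10 (SE; adjusted p = 4.1e-16, edgeR). It was 0.35 ± 0.09 higher in WT_CM than in regular_diff (adjusted p = 0.0144), a call that was lost with thinned counts and without regular_diff replicate 4 or 6 or WT_CM replicate 1, with adjusted p-values of up to 0.0869 over the alternatives. It was -1.01 ± 0.10 in KO_CM against regular_diff (adjusted p = 2.51e-09), and -1.35 ± 0.10 in KO_CM against WT_CM (adjusted p = 2.98e-11). KO_CM remained above preadipocyte by 1.06 ± 0.10 (adjusted p = 4.58e-09). Counts of 3′ ends do not separate spliced from unspliced Xbp1.

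Atf6, the membrane-bound sensor that is cut in the Golgi to release a transcription factor, was near the lower limit of the counts, at 8.43 to 19.5 CPM in preadipocyte, 13.4 to 17.3 in regular_diff, 16.7 to 20.8 in WT_CM and 14.4 to 23.4 CPM in KO_CM. It was called in no comparison, with log2 fold changes of 0.15 to 0.66 and standard errors of up to 0.32. Atf6b, its relative, fell with differentiation from 90.7 ± 6.00 to 60.8 ± 6.35 CPM (mean ± SD, n = 3 each), a log2 fold change of -0.57 ± 0.16 (adjusted p = 0.00304), with a call that was lost with thinned counts. KO_CM replicate 1 was at 91.7 CPM of Atf6b, against 63.2 and 54.2 CPM in KO_CM replicates 2 and 3, and no other comparison of it was called. Without the 2 libraries that stand apart it was -0.55 in KO_CM against preadipocyte (adjusted p = 0.0244).

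Among the HSP70 and HSP90 chaperones and their partners, the co-chaperone Dnajb9 had the largest change. Dnajb9, also called ERdj4, is a J-domain partner of the HSP70 chaperone BiP and a known XBP1 target. It was at 23.0, 28.0 and 20.8 CPM in preadipocyte and at 121, 134 and 133 CPM in regular_diff. It stood at 162, 148 and 156 CPM in WT_CM and at 79.9, 64.1 and 74.7 CPM in KO_CM. As for Xbp1, the KO_CM libraries lay between preadipocyte and regular_diff without overlap. Dnajb9 rose with differentiation by 2.43 ± 0.14 (adjusted p = 2.42e-14). It was -0.84 ± 0.14 in KO_CM against regular_diff (adjusted p = 1.32e-05) and -1.10 ± 0.13 in KO_CM against WT_CM (adjusted p = 2.2e-07). The difference of WT_CM from regular_diff was 0.26 ± 0.12 and did not pass (adjusted p = 0.18). Of the sequence stretches searched at the 3′ end of Dnajb9, 8.43% are shared with a pseudogene, Gm6568.

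Hspa5, which encodes BiP, the main ER chaperone and a common gauge of ER stress, moved far less. It was at 532, 602 and 481 CPM in preadipocyte, 663, 654 and 621 in regular_diff, 702, 768 and 657 in WT_CM and 714, 689 and 677 CPM in KO_CM. The preadipocyte libraries were the lowest and the 3 other groups overlapped. Its log2 fold change with differentiation was 0.26 ± 0.10 (adjusted p = 0.0321), which was 0.11 with library size alone. That call was lost in 7 of 17 alternatives, among them those without preadipocyte replicate 4 or 6 or any 1 of the regular_diff libraries. In KO_CM against preadipocyte it was 0.36 ± 0.10 (adjusted p = 0.0103), lost without preadipocyte replicate 6 (adjusted p = 0.0557). The other 3 comparisons gave -0.03 to 0.13, each with a standard error of 0.10.

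Hsp90b1, which encodes GRP94, the HSP90 of the ER, was at 505, 525 and 497 CPM in preadipocyte, 622, 629 and 603 in regular_diff, 738, 757 and 750 in WT_CM and 843, 914 and 727 CPM in KO_CM. Only the WT_CM and KO_CM libraries overlapped. It was 0.28 ± 0.10 higher in regular_diff than in preadipocyte (adjusted p = 0.0189), which was 0.12 and not called with library size alone, and also lost with thinned counts and without preadipocyte replicate 4 or 6 or regular_diff replicate 4 or 5. It was 0.42 ± 0.10 higher in KO_CM than in regular_diff (adjusted p = 0.0012) and 0.70 ± 0.10 higher than in preadipocyte (adjusted p = 3.49e-06). WT_CM against regular_diff gave 0.28 ± 0.10 with an adjusted p of 0.0772, and 0.0158 without preadipocyte replicate 5 and KO_CM replicate 1. Hsp90b1 overlaps Gm15344 on the same strand and 1810014B01Rik on the opposite one, so a part of its counts is uncertain.

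Manf, a small secreted ER protein that binds BiP, was at 123, 114 and 112 CPM in preadipocyte, 98.4, 109 and 96.4 in regular_diff, 156, 147 and 126 in WT_CM and 136, 177 and 139 CPM in KO_CM. All WT_CM and KO_CM libraries lay above all libraries of the other two groups. The log2 fold change was 0.50 ± 0.12 in WT_CM against regular_diff (adjusted p = 0.00833; lost without regular_diff replicate 4 or 6 or WT_CM replicate 1, and with thinned counts) and 0.59 ± 0.13 in KO_CM against regular_diff (adjusted p = 0.000764). Against preadipocyte KO_CM was 0.39 ± 0.13 higher (adjusted p = 0.0307), a call lost without preadipocyte replicate 6 or KO_CM replicate 2. Manf overlaps Rbm15b on the same strand, which the counting could split. Dnajb11 (ERdj3), a secreted partner of BiP, fell with differentiation from 131 ± 8.36 to 83.0 ± 5.41 CPM, by -0.65 ± 0.12 (adjusted p = 2.87e-05). It was higher in WT_CM, at 108 ± 1.99 CPM, by 0.38 ± 0.12 (adjusted p = 0.0356), and in KO_CM, at 105 ± 7.25 CPM, by 0.33 ± 0.13 (adjusted p = 0.0453). Each of these 2 calls was lost in 8 of 16 alternatives, the first without any 1 of the 6 libraries and the second without regular_diff replicate 5 or KO_CM replicate 2 or 3.

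Dnajc3, which inhibits eukaryotic initiation factor kinases, was at 29.2, 33.9 and 30.8 CPM in regular_diff and at 37.9, 50.5 and 53.0 CPM in WT_CM, a difference of 0.59 ± 0.18 (adjusted p = 0.0371) that was lost with DESeq2, with thinned counts and without regular_diff replicate 4, 5 or 6 or WT_CM replicate 2 or 3. Dnajc10, a reductase with a J-domain, fell with differentiation from 147 ± 35.5 to 85.9 ± 9.30 CPM, by -0.78 ± 0.16 (adjusted p = 0.000171). Without the 2 libraries that stand apart, Dnajc10 was also called higher in KO_CM, by 0.48 against regular_diff (adjusted p = 0.00597) and 0.36 against WT_CM (adjusted p = 0.0462). Sdf2l1, a partner of Dnajb11, was at 8.01, 3.73 and 11.7 CPM in preadipocyte and at 14.4, 24.4 and 22.0 CPM in KO_CM, 1.396 ± 0.35 higher (adjusted p = 0.0046; lost without KO_CM replicate 2, adjusted p = 0.0551). Against regular_diff it was 0.84 (adjusted p = 0.0535), and called without the 2 libraries that stand apart, at 1.03 (adjusted p = 0.0107). Hyou1, the HSP110-type partner of BiP, stayed at 3.11 to 17.9 CPM per library, with values that overlapped in all groups and no call. The 10 genes of this role counted 3 calls higher and 2 lower with differentiation, 3 and 0 in WT_CM against regular_diff, and 3 and 1 in KO_CM against regular_diff. They counted 0 and 1 in KO_CM against WT_CM and 5 and 0 in KO_CM against preadipocyte. As shares of the 10 these are 30% and 20%, 30% and 0%, 30% and 10%, 0% and 10%, and 50% and 0%. The shares of all genes, in the same order, were 24.8% and 26.4%, 5.73% and 4.18%, 17.2% and 17.3%, 13.6% and 13.9%, and 12.1% and 8.4%. No test was made of the role as a group.

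**Figure D3:**
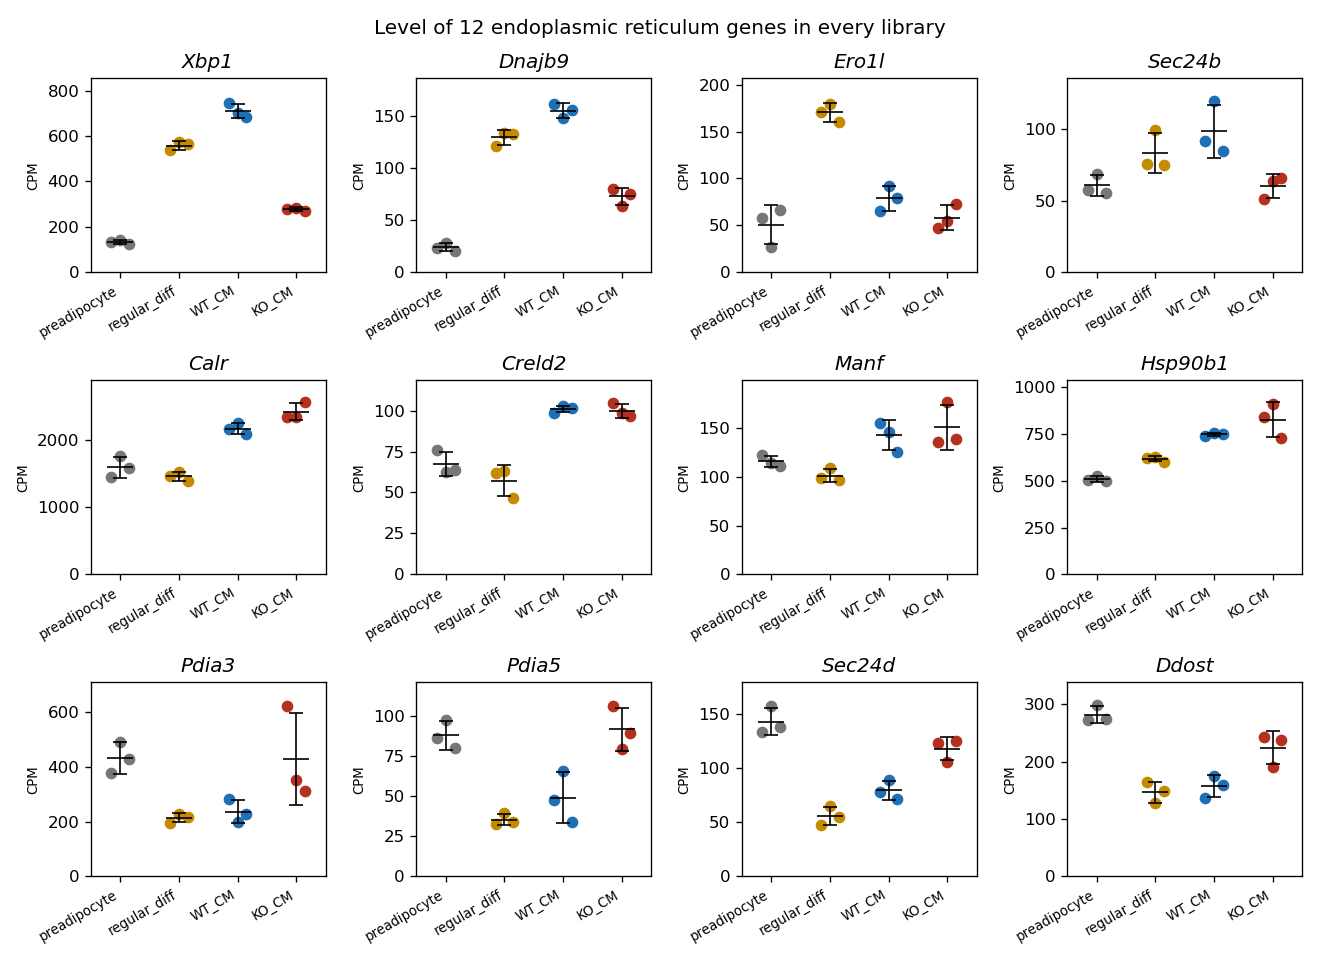
Level in CPM (y axis, from 0) of 12 ER genes in each of the 12 libraries (points), with the mean and standard deviation of the 3 libraries of each group (black bars). Xbp1 and Dnajb9 are highest in WT_CM and intermediate in KO_CM, Calr and Creld2 are higher in the WT_CM and KO_CM libraries, and Pdia5, Sec24d and Ddost are lowest in regular_diff and WT_CM.

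Of the lectin chaperones, which hold newly glycosylated proteins, Calr changed and Canx did not pass the test. Calr, which encodes calreticulin, was at 1446, 1755 and 1575 CPM in preadipocyte and 1459, 1526 and 1388 CPM in regular_diff. It was at 2163, 2247 and 2085 CPM in WT_CM and at 2344, 2344 and 2566 CPM in KO_CM. Every library of either conditioned medium exceeded every other library. The log2 fold change against regular_diff was 0.57 ± 0.10 for WT_CM (adjusted p = 0.000119) and 0.73 ± 0.10 for KO_CM (adjusted p = 5.55e-07), and both were called in each alternative. KO_CM against WT_CM gave 0.16 ± 0.10 (adjusted p = 0.238), so a difference between the media was not shown. Canx, the membrane-bound calnexin, ranged from 89.5 to 138 CPM over the 12 libraries, with differences of -0.05 to 0.28 and standard errors of up to 0.13.

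The genes of disulfide formation went in different directions. Ero1l, the oxidase that recharges protein disulfide isomerases, was at 58.1, 27.4 and 66.8 CPM in preadipocyte and at 171, 180 and 160 CPM in regular_diff. It was at 65.5, 92.0 and 79.5 CPM in WT_CM and at 47.2, 54.2 and 73.3 CPM in KO_CM. The regular_diff libraries stood above all others, and the other groups overlapped. Ero1l rose with differentiation by 1.74 ± 0.23 (adjusted p = 3.7e-05). It was -1.11 ± 0.22 in WT_CM (adjusted p = 0.00609) and -1.56 ± 0.26 in KO_CM (adjusted p = 0.000376) against regular_diff. The difference between the media, -0.45 ± 0.27, did not pass (adjusted p = 0.262).

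Pdia3 and Pdia5 fell with differentiation and were higher in KO_CM than in regular_diff. Pdia5, a disulfide isomerase, was at 86.1, 97.6 and 79.8 CPM in preadipocyte, 32.8, 39.1 and 33.7 in regular_diff, 47.6, 65.3 and 34.0 in WT_CM and 106, 79.4 and 89.4 CPM in KO_CM. The KO_CM libraries overlapped preadipocyte and lay above all WT_CM and regular_diff libraries. It fell with differentiation by 1.32 ± 0.18 on the log2 scale (adjusted p = 7.71e-07), was 1.37 ± 0.20 higher in KO_CM than in regular_diff (adjusted p = 2.76e-06) and 0.89 ± 0.19 higher than in WT_CM (adjusted p = 0.000529). WT_CM against regular_diff gave 0.48 ± 0.19 (adjusted p = 0.138). Pdia3 (ERp57), the isomerase that works with calreticulin and calnexin, was at 377, 493 and 429 CPM in preadipocyte, 196, 227 and 218 in regular_diff, 282, 199 and 228 in WT_CM and 624, 353 and 311 CPM in KO_CM. Its KO_CM mean rests in part on replicate 1, the highest of all libraries. Pdia3 fell with differentiation by 1.02 ± 0.25 (adjusted p = 0.00688). It was 1.01 ± 0.25 higher in KO_CM than in regular_diff (adjusted p = 0.0124), and 0.64 without KO_CM replicate 1 (adjusted p = 0.000512; 1.28e-05 to 0.0492 over the alternatives). Against WT_CM it was 0.86 ± 0.25 higher (adjusted p = 0.0316), 0.49 without KO_CM replicate 1 (adjusted p = 0.0081), and not called without WT_CM replicate 2 or 3 or with only the 6 libraries compared, where the adjusted p reached 0.105.

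Creld2, an ER stress-responsive protein of the same role, was at 76.1, 62.8 and 63.6 CPM in preadipocyte, 62.0, 63.2 and 46.4 in regular_diff, 98.8, 103 and 101 in WT_CM and 105, 98.4 and 96.7 CPM in KO_CM. As for Calr, each library of a conditioned medium exceeded all others. The log2 fold change against regular_diff was 0.83 ± 0.13 for WT_CM (adjusted p = 7.62e-05, and 0.0641 with thinned counts) and 0.81 ± 0.15 for KO_CM (adjusted p = 5.71e-05); KO_CM against WT_CM was -0.01 ± 0.14. Pdia4 (ERp72) and Pdia6 rose with differentiation, by 0.73 ± 0.23 (52.0 ± 13.4 to 85.8 ± 9.70 CPM, adjusted p = 0.019) and 0.34 ± 0.10 (329 ± 36.0 to 415 ± 18.7 CPM, adjusted p = 0.00827); both calls were lost with library size alone and without preadipocyte replicate 4, and that of Pdia4 also without regular_diff replicate 4 or 6. Pdia4 was at 43.2 CPM in KO_CM replicate 1 against 90.3 and 105 CPM in replicates 2 and 3, and its difference from regular_diff, -0.11 ± 0.25, became 0.16 without replicate 1 and preadipocyte replicate 5, also without a call. In that fit it was called 0.71 above preadipocyte (adjusted p = 0.00105). Pdia6 in KO_CM, at 483 ± 51.5 CPM, was 0.55 ± 0.11 above preadipocyte (adjusted p = 0.000257).

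In the translocation channel, most genes did not pass the test. Sec61a1, the pore subunit, was at 465, 511 and 508 CPM in preadipocyte, 385, 387 and 376 in regular_diff, 456, 465 and 435 in WT_CM and 485, 461 and 573 CPM in KO_CM. The regular_diff libraries were the lowest, with no overlap. It fell with differentiation by 0.37 ± 0.10 (adjusted p = 0.00284) and was 0.40 ± 0.10 higher in KO_CM than in regular_diff (adjusted p = 0.00261). WT_CM against regular_diff, 0.24, was called without the 2 libraries that stand apart (adjusted p = 0.0467 in place of 0.155). Sec61a2, the second pore gene, was at 28.8, 37.0 and 24.9 CPM in KO_CM against 37.7, 50.4 and 53.4 CPM in regular_diff and 42.5, 50.5 and 46.1 CPM in WT_CM. Its log2 fold changes of -0.60 ± 0.21 (adjusted p = 0.0237) and -0.57 ± 0.20 (adjusted p = 0.0356) were lost without KO_CM replicate 1 or 3, with DESeq2 and with thinned counts; the first was also lost without regular_diff replicate 5 or 6, and the second without any 1 of the WT_CM libraries. Sec63, the J-domain partner of the channel, was -0.52 ± 0.22 with differentiation (adjusted p = 0.0453), a call lost in 12 of 17 alternatives, among them those without preadipocyte replicate 5 or 6 or any 1 of the regular_diff libraries. The channel counted 0 calls higher and 2 lower with differentiation, 0 and 0 in WT_CM, 1 and 1 in KO_CM against regular_diff, 0 and 1 in KO_CM against WT_CM and 0 and 0 against preadipocyte. As shares of its 10 genes these are 0% and 20%, 0% and 0%, 10% and 10%, 0% and 10%, and 0% and 0%. The shares of all genes, in the same order, were 24.8% and 26.4%, 5.73% and 4.18%, 17.2% and 17.3%, 13.6% and 13.9%, and 12.1% and 8.4%. Sec61b and Sec61g share 60.6% and 49% of the sequence stretches at their 3′ ends with other genes, so their levels are uncertain. Without the 2 libraries that stand apart, Sec61g, at means of 4.62 to 8.37 CPM, was called lower in regular_diff than in preadipocyte (-1.13) and higher in KO_CM than in regular_diff (1.31) and WT_CM (1.38). In that fit Ssr3 was called lower with differentiation (-0.28) and Sec61a2 higher (0.45), and the 2 calls of Sec61a2 in KO_CM and that of Sec63 were lost.

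None of the 4 signal peptidase genes (Sec11a, Sec11c, Spcs1 and Spcs3) was called in any of the 5 comparisons with edgeR or with DESeq2, and 0 of the 4 had an unadjusted p under 0.05 in any. Their sum was uneven within 2 groups: 232 to 430 CPM in preadipocyte and 187 to 435 CPM in KO_CM, against 303 to 327 in regular_diff and 312 to 379 CPM in WT_CM. The lowest sums came from the 2 libraries that stand apart. Spcs1, for example, was at 30.5 CPM in preadipocyte replicate 5 against 85.1 and 123 in the other two, and at 18.3 CPM in KO_CM replicate 1 against 87.6 and 60.1; Spcs1 was named after its values were seen. Without these libraries Spcs3 was called higher in KO_CM than in regular_diff (0.92, adjusted p = 5.02e-07), WT_CM (0.65, adjusted p = 0.000195) and preadipocyte (0.48, adjusted p = 0.0137). Spcs1 and Spcs3 were then lower in regular_diff than in preadipocyte (-0.39 and -0.43), and Sec11a was higher in KO_CM than in regular_diff (0.35, adjusted p = 0.0462). With all 12 libraries Spcs3 was 0.61 in KO_CM against regular_diff (adjusted p = 0.243, edgeR). It was at 68.1 CPM in KO_CM replicate 1, against 177 and 161 CPM in replicates 2 and 3. Leaving out a low library chosen in these same data makes the gained calls no separate evidence.

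Of the oligosaccharyltransferase genes, Ddost, a subunit of the enzyme that transfers the sugar chain, was at 273, 299 and 274 CPM in preadipocyte, 164, 128 and 148 in regular_diff, 137, 175 and 160 in WT_CM and 244, 191 and 237 CPM in KO_CM. The groups formed 3 levels, with regular_diff and WT_CM overlapping, KO_CM above them and preadipocyte highest. It fell with differentiation by 0.94 ± 0.12 (adjusted p = 1.83e-07), was 0.60 ± 0.13 higher in KO_CM than in regular_diff (adjusted p = 0.00039) and 0.50 ± 0.12 higher than in WT_CM (adjusted p = 0.00279). KO_CM against preadipocyte, -0.34 ± 0.12, was just past the threshold (adjusted p = 0.0491) and was lost in 11 of 16 alternatives, among them those without any 1 of the preadipocyte libraries, without KO_CM replicate 3, and without KO_CM replicate 2, where it was -0.21. Ostc, another subunit, named after its values were seen, was -0.51 ± 0.20 with differentiation (adjusted p = 0.0412), at 193, 116 and 227 CPM in preadipocyte and 132, 113 and 129 in regular_diff; the groups overlapped, and the value was -0.32 and not called without preadipocyte replicate 6. The call was also lost without preadipocyte replicate 4 or any 1 of the regular_diff libraries. Without the 2 libraries that stand apart it was called 0.51 higher in KO_CM than in regular_diff (adjusted p = 0.000915). Rpn2 and Stt3b, the other two, were not called with all libraries. Stt3b, a catalytic subunit, was at 89.6, 65.9 and 107 CPM in preadipocyte and 49.8, 148 and 161 CPM in KO_CM, lowest in the libraries that stand apart. Without them it was called higher in regular_diff than in preadipocyte (0.42, adjusted p = 0.00432; also called with DESeq2 on all libraries), in WT_CM than in regular_diff (0.32, adjusted p = 0.0342) and in KO_CM than in preadipocyte (0.65, adjusted p = 0.00062).

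**Figure D4:**
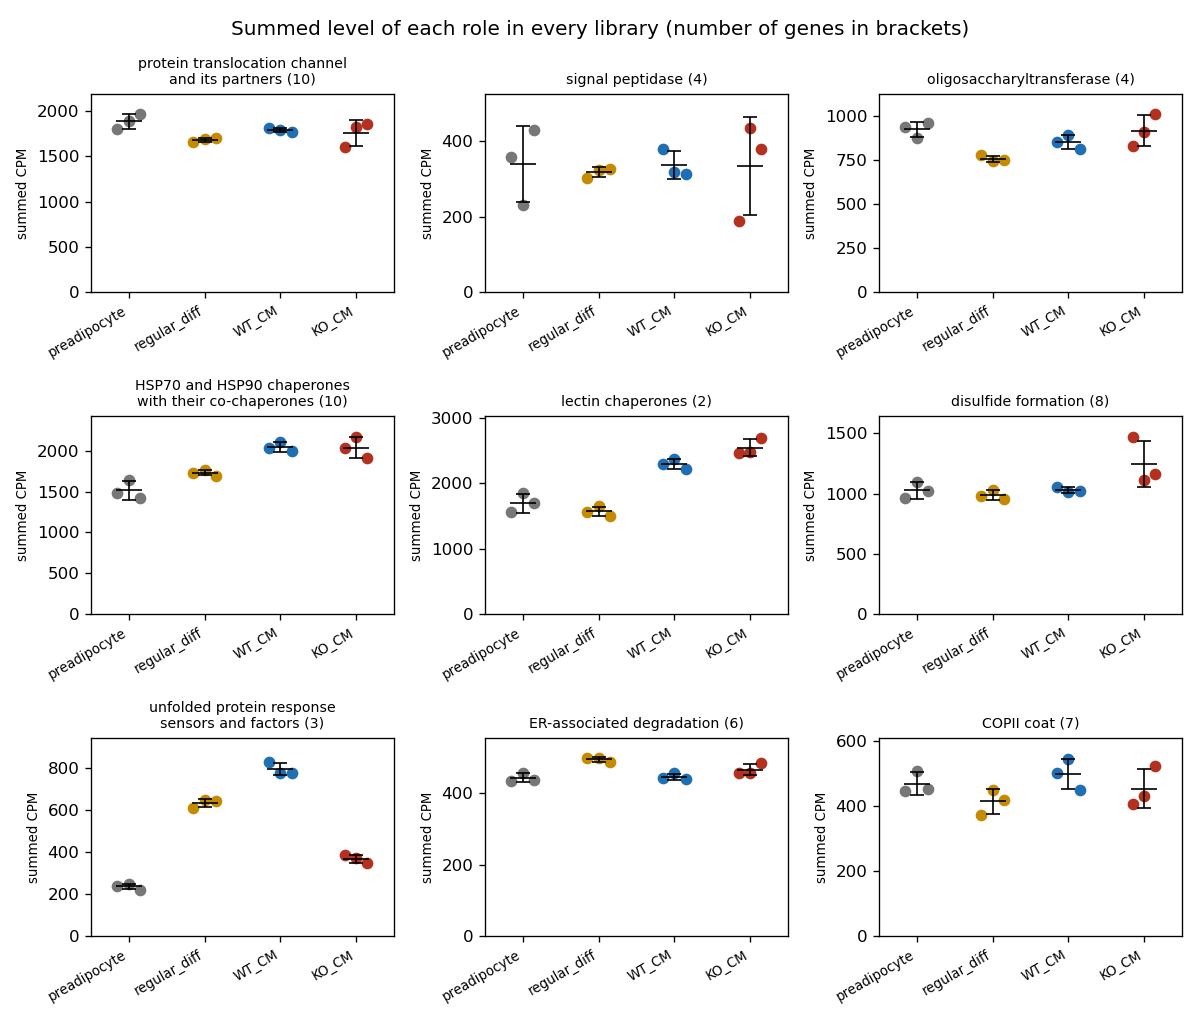
Summed CPM (y axis, from 0) of the genes of each of 9 roles in each of the 12 libraries (points), with the mean and standard deviation of each group (black bars). Sums follow the genes with most counts: the 3 unfolded protein response genes sum to 611 to 647 in regular_diff, 776 to 826 in WT_CM and 346 to 387 in KO_CM, and the lectin chaperones to 1504 to 1645, 2218 to 2371 and 2461 to 2692.

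In ER-associated degradation, Sel1l, the adaptor of the ubiquitin ligase of this pathway, rose with differentiation from 118, 114 and 116 CPM to 170, 165 and 163 CPM, by 0.52 ± 0.12 (adjusted p = 0.000449). It stayed at 132 to 182 CPM in the WT_CM and KO_CM libraries and was not called against regular_diff. KO_CM was 0.41 ± 0.12 above preadipocyte (adjusted p = 0.0151), a call lost without KO_CM replicate 2 or 3. Edem1, a lectin that marks misfolded glycoproteins for degradation, was at 105, 105 and 85.9 CPM in regular_diff, 61.9, 67.7 and 78.3 in WT_CM and 78.6, 63.2 and 70.3 CPM in KO_CM. The regular_diff libraries lay above all of either medium. The log2 fold change was -0.51 ± 0.14 for WT_CM (adjusted p = 0.0151) and -0.49 ± 0.15 for KO_CM (adjusted p = 0.0136). The first was lost with DESeq2, with thinned counts and without regular_diff replicate 4 or 5 or WT_CM replicate 1 or 2, and the second without regular_diff replicate 4 or 5 or KO_CM replicate 2. Without the 2 libraries that stand apart, its rise with differentiation was also called (0.38, adjusted p = 0.0159). Herpud1, a membrane protein of the same pathway induced by ER stress, ranged from 88.0 to 136 CPM over all libraries with no call. Its differences were -0.16 to 0.21, with standard errors of up to 0.14. Edem2, Edem3 and Herpud2 were not called either.

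Of the COPII coat genes, the cargo adaptors Sec24b and Sec24d changed in opposite directions. Sec24d was at 134, 157 and 137 CPM in preadipocyte, 47.4, 64.7 and 55.2 in regular_diff, 77.8, 88.5 and 71.4 in WT_CM and 123, 106 and 125 CPM in KO_CM. The 4 groups did not overlap. It fell with differentiation by 1.36 ± 0.14 (adjusted p = 1.53e-09), was 0.51 ± 0.14 higher in WT_CM (adjusted p = 0.0165) and 1.08 ± 0.15 higher in KO_CM than in regular_diff (adjusted p = 1.01e-06). KO_CM was 0.56 ± 0.14 above WT_CM (adjusted p = 0.00288). The rise in WT_CM was lost with DESeq2, with thinned counts and without regular_diff replicate 4 or 6 or WT_CM replicate 2. Sec24b was at 57.6, 69.0 and 55.8 CPM in preadipocyte, 75.9, 99.3 and 74.9 in regular_diff, 91.6, 120 and 84.7 in WT_CM and 51.1, 64.1 and 65.9 CPM in KO_CM. The KO_CM libraries overlapped preadipocyte and lay below the other two groups. Sec24b was -0.70 ± 0.17 in KO_CM against WT_CM (adjusted p = 0.00203). Its difference from regular_diff, -0.45 ± 0.17 (adjusted p = 0.0426), was lost in 10 of 16 alternatives, among them those without any 1 of the KO_CM libraries and without regular_diff replicate 4 or 5. Its rise with differentiation, 0.45 ± 0.15 (adjusted p = 0.0169), was 0.29 and not called with library size alone, and was lost without preadipocyte replicate 4 or 6 or regular_diff replicate 5. Sec23a, Sec23b, Sec24a and Sec24c were not called with all libraries. Without the 2 that stand apart, Sec24c was called higher than in preadipocyte, by 0.36 in regular_diff (adjusted p = 0.0142) and 0.51 in KO_CM (adjusted p = 0.011).

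Across the 5 comparisons, 26 of the 52 tested genes had no call with all 12 libraries. Their group means ran from 3.52 to 413 CPM and their largest change was 0.93 on the log2 scale, that of Hyou1. The matching count over all genes was not made, so whether 26 is many or few cannot be judged. In the single comparisons, in the order above, 33, 43, 36, 44 and 41 ER genes were not called. Of the 9519 tested genes, 4645, 8576, 6229, 6894 and 7563 were not called. The ER genes took 0.895% to 0.920% of all counts in preadipocyte, 0.809% to 0.842% in regular_diff, 0.952% to 0.985% in WT_CM and 0.998% to 1.06% in KO_CM. Their summed level after scaling was 8221 to 8803, 8484 to 8789, 9794 to 10280 and 9838 to 10356 CPM. The regular_diff libraries were below preadipocyte as a share of counts but overlapped it after scaling, while both media stood above both of these groups on either scale. Much of that rise is Calr alone, with group means of 1592, 1458, 2165 and 2418 CPM in the same order. The means of the whole sum were 8543, 8593, 10096 and 10130 CPM. The sums alone therefore do not show whether most ER genes rose. In WT_CM against regular_diff, log2 fold changes were above 0 in 7 of 7 tested ERSE genes and 32 of the 45 others. In KO_CM against regular_diff they were above 0 in 7 of 7 and 24 of 45. These counts include values without a call, and the matching counts over all genes were not made.

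The wider pathway was followed in 92 other ER genes of a list of targeting, folding, glycan trimming, degradation, stress response and vesicle genes, of which 87 were tested. With differentiation 16 were higher and 22 lower, 18.4% and 25.3% against 24.8% and 26.4% of all genes. In WT_CM against regular_diff 3 were higher and 1 lower, 3.45% and 1.15% against 5.73% and 4.18%. In KO_CM against regular_diff 23 were higher and 8 lower, 26.4% and 9.2% against 17.2% and 17.3%. In KO_CM against WT_CM 14 were higher and 7 lower, 16.1% and 8.05% against 13.6% and 13.9%. In KO_CM against preadipocyte 9 were higher and 8 lower, 10.3% and 9.2% against 12.1% and 8.4%. The medians were -0.10, 0.03, 0.04, 0.07 and -0.01 in the same order. The calcium-binding proteins Rcn1 and Rcn3 fell most with differentiation. Rcn3 went from 384 ± 29.9 to 91.4 ± 5.81 CPM (-2.07 ± 0.14, adjusted p = 2.36e-12) and stood at 108 ± 19.5 CPM in WT_CM and 352 ± 73.9 CPM in KO_CM, 1.71 ± 0.14 above WT_CM (adjusted p = 5.77e-10). Rcn1 fell by 2.18 ± 0.20 and was 1.33 ± 0.21 higher in KO_CM than in WT_CM (adjusted p = 0.000117).

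Creb3l1, a membrane-bound transcription factor related to ATF6 and known in collagen-secreting cells, fell from 345 ± 28.4 to 140 ± 7.40 CPM, by 1.30 ± 0.11 (adjusted p = 7.4e-11). It was 0.70 ± 0.12 higher in KO_CM than in WT_CM (199 ± 17.6 against 121 ± 10.4 CPM, adjusted p = 2.95e-05) and stayed -0.80 ± 0.11 from preadipocyte (adjusted p = 3.04e-06). Fkbp11, a prolyl isomerase, fell by 1.399 ± 0.14 with differentiation and was 0.47 ± 0.15 higher in WT_CM than in regular_diff (adjusted p = 0.0443), together with Fkbp10 at 0.43 ± 0.10 (adjusted p = 0.00517) and Mlec, a lectin of newly attached glycans, at 0.36 ± 0.12 (adjusted p = 0.0478). Ddit3 (CHOP), a transcription factor of the PERK arm, was at 255 ± 16.8 CPM in regular_diff and 157 ± 2.28 CPM in WT_CM, a difference of -0.70 ± 0.12 (adjusted p = 0.000159). Derl1, a membrane channel component of ER-associated degradation, went from 81.6 ± 9.10 to 178 ± 23.1 CPM with differentiation, by 1.13 ± 0.12 (adjusted p = 1.2e-08). It was at 143 ± 7.04 CPM in WT_CM and 100 ± 7.78 CPM in KO_CM, -0.51 ± 0.13 from WT_CM (adjusted p = 0.00405). Lrpap1, a chaperone of lipoprotein receptors, rose by 1.17 ± 0.18 with differentiation (adjusted p = 2.25e-06), and Tmbim6 and Sil1 by 0.89 ± 0.10 and 0.82 ± 0.16.

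Others of the largest called changes in KO_CM against regular_diff were P4ha1, a collagen prolyl hydroxylase (1.07 ± 0.25), and Mbtps2, a protease that cuts ATF6 (1.00 ± 0.29). Mbtps2 shares 33.5% of its 3′ stretches with Yy2, so its value is uncertain. Ppp1r15b (-0.73 ± 0.16), Sar1b (-0.59 ± 0.12) and Srp19 (-0.56 ± 0.12) were lower. Between KO_CM and WT_CM, Os9 was higher by 0.98 ± 0.24, and Erp29 (-0.51 ± 0.10), Sar1b (-0.53 ± 0.12) and Srp19 (-0.61 ± 0.12) were lower. P4ha2 (0.85 ± 0.14), Os9 (0.70 ± 0.24) and Mogs (0.55 ± 0.13) were higher, and Sec13 (-0.46 ± 0.11) lower, in KO_CM than in preadipocyte. Sec13 shares 17% of its 3′ stretches with 4933417G07Rik, so its value is uncertain too.

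The 7 tested genes with an ERSE are Hspa5, Hsp90b1, Calr, Canx, Creld2, Pdia6 and Dnajc3, and no test was made of them as a group. In WT_CM against regular_diff their log2 fold changes were 0.13 to 0.83, with a median of 0.28 and 3 calls higher; the 45 other tested ER genes had a median of 0.15, with 4 higher and 2 lower. In KO_CM against regular_diff they were 0.10 to 0.81, with a median of 0.22 and 3 calls higher, and the 45 others had a median of 0.07, with 7 higher and 6 lower. In KO_CM against WT_CM they were -0.39 to 0.16, with a median of -0.01 and 0 calls. The 45 others had a median of 0.0038, with 4 higher and 4 lower. In regular_diff against preadipocyte the 7 were -0.25 to 0.35, with a median of 0.26 and 3 calls higher. The 45 others had a median of -0.09, with 6 higher and 10 lower. In KO_CM against preadipocyte the 7 were 0.28 to 0.70, with a median of 0.55 and 5 calls higher. The 45 others had a median of 0.03, with 5 higher and 1 lower. Over all genes, 5.73%, 17.2%, 13.6%, 24.8% and 12.1% were called higher in these 5 comparisons, in the order given. In the same order, 4.18%, 17.3%, 13.9%, 26.4% and 8.4% of all genes were called lower. The 7 genes with an ERSE had 0 calls lower in each comparison. Xbp1 and Dnajb9, without a match in their windows, had larger changes than any of the 7 with differentiation and between the media, in the directions given above.

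By the annotation GENCODE vM21 on mm10, which all 54 symbols matched, every ER gene named with its values is protein-coding. Xbp1 (ENSMUSG00000020484.18) lies on chromosome 11 from 5520659 to 5525893, Dnajb9 (ENSMUSG00000014905.4) on chromosome 12 from 44205559 to 44210326, and Calr (ENSMUSG00000003814.8) on chromosome 8 from 84841850 to 84846934. Hspa5 (ENSMUSG00000026864.13) lies on chromosome 2 from 34771970 to 34777547, Pdia3 (ENSMUSG00000027248.13) on chromosome 2 from 121413775 to 121438687 and Sec24d (ENSMUSG00000039234.11) on chromosome 3 from 123267455 to 123365641. Genes on the opposite strand overlap Sec61a1 (Gm44170), Sec61a2 (Nudt5), Ssr2 (Gm10704), Sec11a (Gm16171), Dnajc1 (Mllt10), Pdia6 (Atp6v1c2) and Sec23a (Gm17529). The same holds for Manf (4930524O07Rik and Dcaf1) and, as given above, Hsp90b1. Among the other ER genes named, such overlaps were found for Rcn3 (Gm45669), Ddit3 (Mars), Erp29 (Naa25) and Sil1. Whether the counting used strand is not given in the sources used here, so reads of such pairs may not be told apart.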

How the data were processed

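The deposited table holds UMI counts per gene of 12 MARS-seq libraries. Per the submitters' processing notes, the authors used cutadapt, HTSeq, DESeq2 and the genome build mm10; the sources used here give no versions, annotation or use of strand. The counts were analysed as the authors deposited them, and 24 per-sample columns of normalized values were not used.

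Genes were filtered with filterByExpr and tested with edgeR 4.0.16 (robust quasi-likelihood, TMM scaling, two-sided, R 4.3.3) in 1 fit of all 12 libraries, with Benjamini-Hochberg adjustment over the 9519 genes kept and a threshold of 0.05 (common biological coefficient of variation 0.126). Levels are CPM, counts relative to the TMM-scaled library size. SE is the log2 fold change divided by the square root of F. Totals of 669007 to 2025317 counts per library set the precision, which is lowest for genes with few counts in KO_CM. The fit was tested on simulated data. The members and the gene lists were chosen with earlier results of these data known. The genes named are a list of main members such as Xbp1, Hspa5 and Calr, in each comparison and role the called member with the largest rise and that with the largest fall, and of the other ER genes the 4 largest called changes in each direction and comparison.

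Promoters came from RefSeq (GRCm38.p6). Gene positions and 3′ stretches of 31 bases came from GENCODE vM21. The alternatives were other scalings, DESeq2 1.42.0, other filters, only the 6 libraries compared, a replicate block, thinned counts, no robust estimation, no ribosomal genes, and libraries left out.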

Additional observations from a re-analysis of the deposited data

Results flagged for a closer look

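Xbp1 differed between the media of p53-knockout and p53-intact cancer cells by -1.35 on the log2 scale (KO_CM against WT_CM, adjusted p = 2.98e-11, edgeR), with values of 0.35 for WT_CM and -1.01 for KO_CM against the shared regular_diff libraries. It was singled out because both media values passed the test with opposite signs, and so did their difference. The WT_CM value lost its call in 4 of 16 alternatives. Dnajb9 (0.26 and -0.84, difference -1.10) and Sec24b (0.25 and -0.45, difference -0.70) also had opposite signs and a difference that passed, but their WT_CM values did not pass. All 3 KO_CM libraries were below all 3 WT_CM libraries. Of the adipocyte markers 6 of 8 were also lower, and of the stromal markers 6 of 7 tested higher, in KO_CM than in WT_CM, and their part in the Xbp1 difference was not tested.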

How the results depend on the processing

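Of the 63 calls of ER genes over the 5 comparisons, 37 passed in every alternative and 26 were lost in at least 1; 46 of the 197 values without a call gained one in some alternative, and no called value changed sign. In regular_diff against preadipocyte, the counts of 9 higher and 10 lower became 4 and 17 with library size alone and 13 and 13 without preadipocyte replicate 5 and KO_CM replicate 1 together, and ran from 4 to 11 and from 8 to 10 with 1 library left out. In WT_CM against regular_diff, the 7 higher became 4 with DESeq2, 11 with only the 6 libraries compared, 10 without those 2 libraries and 1 with thinned counts, and 2 to 6 with 1 library left out; the 2 lower became 1 with DESeq2 and with thinned counts, and 1 to 2 with 1 library left out (1 without regular_diff replicate 4 or 5 or WT_CM replicate 1 or 2). In KO_CM against regular_diff, the 10 higher became 16 without those 2 libraries; with 1 library left out they were 9 to 13, and the 6 lower 3 to 5. In KO_CM against WT_CM, the 4 higher became 7 without those libraries, and both counts were 3 to 4 with 1 left out. In KO_CM against preadipocyte, the 1 lower became 6 with library size alone, 2 without those libraries, and 0 with RLE scaling, DESeq2, no filter, only the 6 libraries or thinned counts; the 10 higher were 14 without those 2 libraries, and with 1 left out 7 to 12 (7 without KO_CM replicate 2) and the lower 1 to 2 (2 without KO_CM replicate 1). The lower counts with thinned reads come from fewer counts; the other causes were not tested. With the replicate block, within the 6 libraries compared, there were 11 higher and 9 lower in regular_diff against preadipocyte, and 4 and 3 in KO_CM against WT_CM. Samples with the same number correlated at -0.05 to 0.12, and those with different numbers at -0.11 to 0.08. With 3 libraries a group, these values neither show nor exclude that the numbers pair the samples. KO_CM had the fewest counts, which limits the precision of its low genes.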
